A study of Zea mays with 6 samples.

Results

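The maize pollen and sperm genes MTL (Zm00001d029412), DMP (Zm00001d044822) and GEX2 (Zm00001d005781) were followed through mature anthers of wild-type plants and of plants carrying the genotype ZmCOI2a-/-,ZmCOI2b-/-. They were chosen by identifier, and all 3 are among the 31470 genes listed in each library. Both groups are in the maize inbred line B104 and hold 3 RNA sequencing libraries each, so 6 libraries in all. By its label the mutant group is homozygous for loss of 2 genes of the COI family, whose F-box proteins perceive jasmonate, and the control group is wild type at both. The labels describe the tissue as anther at the mature stage. Separate plants are not stated for the replicates, and p-values therefore reflect only how far these libraries differ, part of which may be technical. The title of the series places both COI genes in anther opening and in male fertility at the gametophyte stage, and the comparison here asks how much transcript of genes of the male gametophyte the anthers of each genotype held.

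A mature maize anther holds pollen grains inside a wall of sporophytic tissue. Each grain consists of a vegetative cell that encloses a pair of sperm cells, and the sperm fertilize the egg cell and the central cell. MTL (MATRILINEAL, also known as NOT LIKE DAD and ZmPLA1) encodes a patatin-like phospholipase A of pollen, and its loss makes maize pollen induce haploid seeds. DMP encodes a membrane protein of the DUF679 family, and loss of DMP raises the rate of haploid induction in maize. GEX2 belongs to the GAMETE EXPRESSED genes found in maize sperm, and its Arabidopsis counterpart is a sperm surface protein that helps gametes attach.

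The 3 genes differed widely in level, and neither of the 2 that could be tested differed between genotypes at an adjusted p under 0.05. MTL was abundant and, with the libraries scaled as deposited, close in both genotypes. GEX2 was read at 4.89 to 12.4% of the MTL level. With the libraries scaled as deposited, its mutant values all lay below its wild-type values. DMP was at the limit of detection in all 6 libraries. Levels are given in FPKM, a measure scaled to gene length and library depth, which can be compared between genes. The depth was alike across libraries, at 16845656 to 17759978 reads counted on genes. Mutant replicate 3 stood nearest to wild type among the mutant libraries, at -21.9 on the first principal component (52.8% of the variance). Mutant replicates 1 and 2 were at -42.9 and -46.3, and the wild-type libraries between 24.3 and 45.8.

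MTL, the pollen phospholipase, lies on the plus strand of chromosome 1 (69428973 to 69430785, B73 RefGen_v4). Its span of 1813 bases was counted over 1470 bases, so the model has several segments. It was at 60.1, 64.6 and 49.9 FPKM in wild-type replicates 1, 2 and 3, from 1527, 1599 and 1293 reads. In mutant replicates 1, 2 and 3 it was at 54.3, 60.6 and 57.3 FPKM, from 1403, 1564 and 1495 reads. The lowest and the highest of the 6 values were both wild type, and the 3 mutant values lay between them. The wild-type mean was 58.2 ± 7.53 FPKM and the mutant mean 57.4 ± 3.17 FPKM (SD, n = 3 each).

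MTL was among the more highly read genes of every library, with 93.4 to 95.4% of listed genes below it. Its log2 fold change on log2(FPKM + 1), mutant over wild type, was -0.01 (SE 0.16, limma adjusted p = 0.966). The 95% interval ran from -0.39 to 0.37, or from 0.762 to 1.29 as a ratio, so on this scale, with the libraries scaled as deposited, the interval leaves out a mutant level under 0.762 of wild type. The difference was smaller than the spread between replicates, and the sign turned under other scalings, with median-of-ratios scaling giving 0.26 (95% interval -0.20 to 0.73, adjusted p = 0.473) and upper-quartile scaling 0.20 (-0.27 to 0.67, adjusted p = 0.604). Relative to the median log2 fold change of tested genes (-0.20), MTL was at 0.19, and 69.5% of tested genes had a lower value. After median-of-ratios and upper-quartile scaling it was at 0.24 and 0.22 relative to the median. In bulk anthers a change in the number of pollen grains and a change in transcript per grain cannot be told apart, and levels are relative to the RNA of the whole anther.

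**Figure D1:**
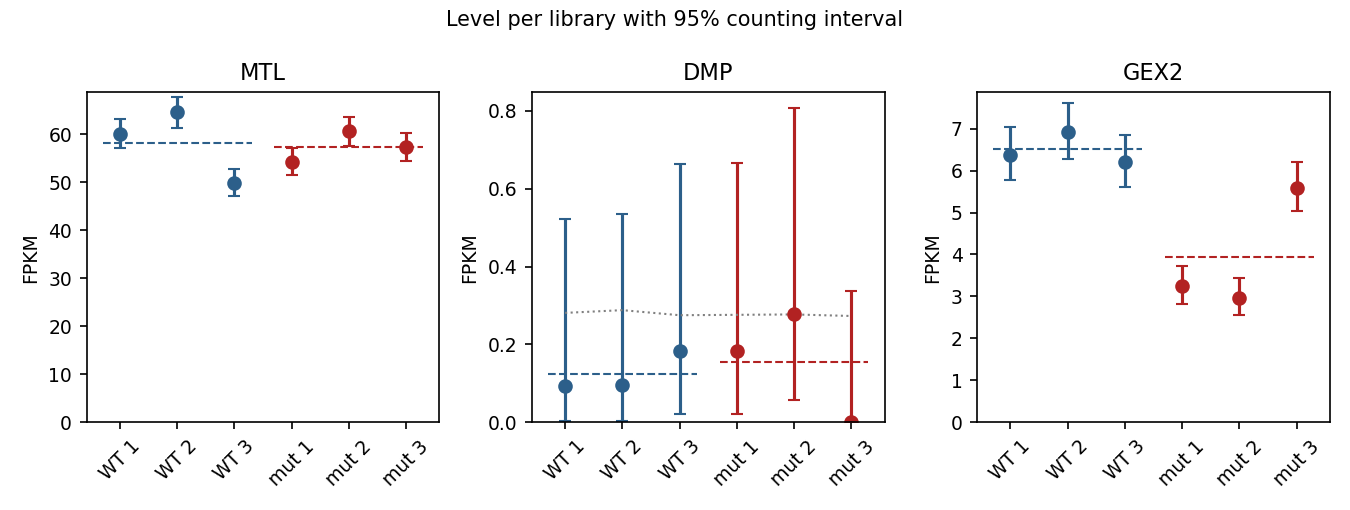
Level in FPKM (linear axes from 0) of MTL, DMP and GEX2 in each wild-type (WT, blue) and mutant (mut, red) library. Bars are exact Poisson 95% counting intervals, dashed lines the group means, and the dotted line in the DMP panel the level of 3 reads. MTL overlaps between genotypes, DMP stays at or under 3 reads throughout, and the GEX2 values of mutant replicates 1 and 2 lie apart from the other 4.

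GEX2, the sperm gene, lies on the minus strand of chromosome 2 (188128573 to 188134758). Its model spans 6186 bases, of which 3553 (57.4%) were counted. Wild-type replicates 1, 2 and 3 gave 6.38, 6.92 and 6.21 FPKM, from 392, 414 and 389 reads. Mutant replicates 1, 2 and 3 gave 3.25, 2.97 and 5.59 FPKM, from 203, 185 and 353 reads. All 3 mutant libraries were below all 3 wild-type libraries, with mutant replicate 3 close under the lowest wild-type value. Of the 18984 tested genes, 28.6% were likewise lower in every mutant library than in every wild-type library, so this separation is common among these libraries and is not particular to GEX2. It also rests on the scaling as deposited. Median-of-ratios scaling divides mutant replicate 3 by 0.929 and wild-type replicate 3 by 1.20, and upper-quartile scaling divides them by 0.934 and 1.20. Either places GEX2 in mutant replicate 3 above wild-type replicate 3, so the groups then overlap.

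The mean level of GEX2 was 6.50 ± 0.369 FPKM in wild type and 3.94 ± 1.44 FPKM in the mutant (SD, n = 3 each), a ratio of 0.605 for mutant over wild type. On log2(FPKM + 1), where changes of weakly read genes come out too small, the log2 fold change was -0.64 (SE 0.22, 95% interval -1.14 to -0.14). It had an unadjusted p of 0.0185 and missed the threshold after adjustment over all tested genes (limma adjusted p = 0.104). In the same comparison 6.65% of tested genes were called changed in either direction and 4.75% were called lower in the mutant. An unadjusted p under 0.05 with a lower value in the mutant was found for 22.4% of tested genes. The median log2 fold change of tested genes was -0.20, and 12.6% of them had a lower value than GEX2. Relative to that median GEX2 was at -0.44, and it was at -0.44 also after median-of-ratios and after upper-quartile scaling, which move the median to 0.03 and -0.03. Its log2 fold change itself was then -0.41 (adjusted p = 0.277) and -0.46 (adjusted p = 0.239). Other settings gave a larger difference that also missed the threshold. With 0.1 added in place of 1 it was -0.77 (limma adjusted p = 0.105). With limma-voom on recovered whole reads it was -0.78 (adjusted p = 0.0786).

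The GEX2 difference was carried by mutant replicates 1 and 2. The counting interval of mutant replicate 3 (5.03 to 6.21 FPKM) overlapped that of wild-type replicate 1 (5.77 to 7.05) and that of wild-type replicate 3 (5.61 to 6.86). It lay apart from those of mutant replicate 1 (2.82 to 3.73) and mutant replicate 2 (2.55 to 3.43), so the mutant libraries differed among themselves by more than counting error. The coefficient of variation of GEX2 was 36.7% in the mutant against 5.67% in wild type, whereas that of MTL was 5.53% in the mutant and 12.9% in wild type. Without mutant replicate 3, the library nearest to wild type over all genes, the mutant mean of GEX2 was 3.11 FPKM (n = 2), 0.478 of the wild-type mean. GEX2 then passed the threshold, with a log2 fold change of -0.87 (limma adjusted p = 0.0455). Without mutant replicate 1 it was -0.55 (adjusted p = 0.270) and without mutant replicate 2 it was -0.50 (adjusted p = 0.314). Of the 18984 tested genes, 840 were called without mutant replicate 3, against 1262 with all libraries. Only 54 were called without mutant replicate 1 and 50 without mutant replicate 2. The dependence of calls on mutant replicates 1 and 2 is therefore not particular to GEX2. What sets mutant replicate 3 apart was not tested.

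**Figure D2:**
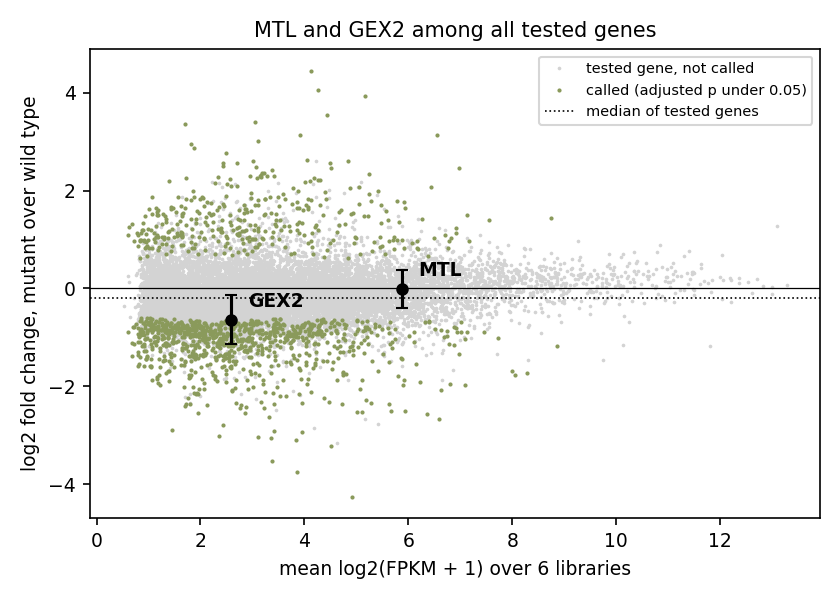
Log2 fold change, mutant over wild type, against mean log2(FPKM + 1) over the 6 libraries for each of the 18984 tested genes; green points were called at an adjusted p under 0.05. MTL and GEX2 are black with their 95% limma intervals: MTL is at -0.01 and GEX2 at -0.64, beside a median of -0.20 for all tested genes (dotted line).

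The plain ratio of GEX2 FPKM to MTL FPKM within a library does not depend on how libraries are scaled. GEX2 was at 10.6, 10.7 and 12.4% of the MTL level in wild-type replicates 1, 2 and 3. It was at 5.99, 4.89 and 9.77% of the MTL level in mutant replicates 1, 2 and 3. The groups did not overlap, and mutant replicate 3 was again close to the wild-type libraries. How many other tested genes separate in their ratio to MTL was not counted, so this is not read as particular to GEX2. On level alone, 28.6% of tested genes were lower in every mutant library than in every wild-type library. The wild-type mean of the GEX2 to MTL ratio was 11.3 ± 1.03% and the mutant mean 6.88 ± 2.56% (SD, n = 3 each). The difference in the log2 ratio of the FPKM + 1 values was -0.63. With 0.1 added in place of 1 it was -0.75. With nothing added, a choice made after seeing the data, it was -0.77. The added constant also lets this difference shift with scaling, unlike the plain ratio. For the value of -0.63 the exact permutation p was 0.1 (two-sided), the smallest that 3 against 3 libraries allow. After adjustment over the 3 pairs of genes it was 0.3. The 2 pairs with DMP, planned and counted in that adjustment, add little. DMP stayed between 0 and 0.35 on log2(FPKM + 1), so DMP over GEX2 (0.67) mostly repeats the GEX2 difference with the sign turned. DMP over MTL (0.04) is small and rests on the same few DMP reads.

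**Figure D3:**
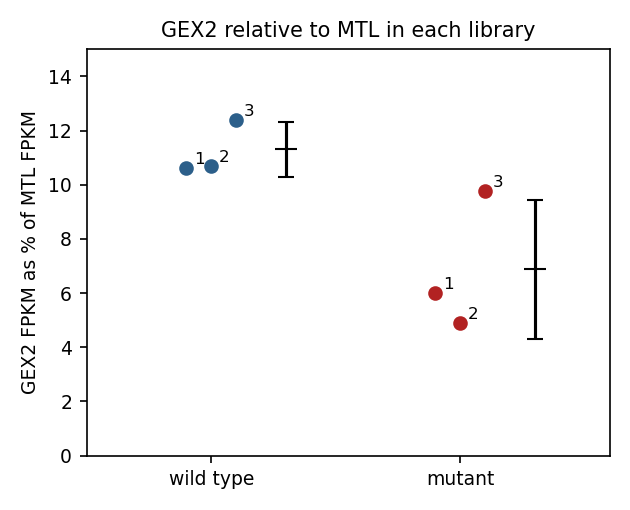
GEX2 level as a percentage of the MTL level in the same library, on a linear axis from 0, with points numbered by replicate. Black bars are the group means with 1 SD (n = 3). The wild-type libraries lie between 10.6 and 12.4% and the mutant libraries between 4.89 and 9.77%.

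DMP, the DUF679 membrane protein gene, lies on the plus strand of chromosome 9 (3919235 to 3919852). It was counted over its whole span of 618 bases, a single segment of 206 triplets. Wild-type replicates 1, 2 and 3 held 1, 1 and 2 reads of it, or 0.0936, 0.0961 and 0.184 FPKM. Mutant replicates 1, 2 and 3 held 2, 3 and 0 reads, or 0.184, 0.277 and 0 FPKM. The groups overlapped, and no library was above the level of 3 reads, which is 0.273 to 0.288 FPKM for this gene and covers counting error only.

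DMP was under 1 FPKM in every library and therefore stayed outside the genotype test, so 2 of the 3 genes were tested. With every library at or under 3 reads, no fold between genotypes can be read from it. A genotype difference in DMP was not detectable at this depth, and the upper counting limits ran from 0.336 FPKM in mutant replicate 3 to 0.808 in mutant replicate 2. Even that highest limit is far under the lowest MTL value of 49.9 FPKM and the lowest GEX2 value of 2.97 FPKM. Whether transcribed bases beyond the counted 618 were left out of the count cannot be read from the files. The plants are of line B104, whereas the genome build named by the submitters is that of B73. Whether reads of DMP were lost through this difference was not tested. With no filter on low values, DMP was not called (limma adjusted p = 0.864), on 4 wild-type and 5 mutant reads.

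Ordered by level, MTL was above GEX2 and GEX2 above DMP in every library, with counting intervals that did not touch. The levels of MTL and GEX2 therefore stood in the same order in both genotypes, with MTL 8.03 to 9.42 times the GEX2 level in wild type and 10.2 to 20.4 times in the mutant. Between 60.3 and 71.5% of listed genes lay below GEX2 in a library, and at most 29.2% lay below DMP.

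None of the 3 overlaps another listed gene, so no counted span is shared with one. The nearest listed gene to DMP lies 122 bases away on the opposite strand (chromosome 9, 3919975 to 3927274), and was at 0.0723 to 0.187 FPKM, from 8 to 21 reads per library. The other neighbour of DMP (3897009 to 3898513) was at 0.704 ± 0.394 FPKM in wild type and 1.56 ± 0.823 FPKM in the mutant (SD, n = 3 each, limma adjusted p = 0.190). The listed genes on either side of GEX2 on chromosome 2 were hardly read, at 0.0493 to 0.546 FPKM (188119534 to 188120987) and 0 to 0.0578 FPKM (188139025 to 188146351).

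MTL lies between a gene with 0 to 10 reads per library (chromosome 1, 69320905 to 69324756) and one read more highly than itself, 80.9 kb away (69511674 to 69512922). The second was at 222 ± 118 FPKM in wild type and 139 ± 23.3 FPKM in the mutant (SD, n = 3 each). The log2 fold change of -0.55 did not pass (SE 0.35, limma adjusted p = 0.327), and its 355 FPKM in wild-type replicate 3 stood in the library where MTL was lowest.

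The genes with the most similar pattern across the 6 libraries were sought by the root mean square difference of their log2 deviations from their own mean. For GEX2 the nearest of 18982 other tested genes lies on chromosome 5 (5417208 to 5421880), with a difference of 0.0317 against deviations of 0.397 in GEX2 itself. It was at 12.0, 12.5 and 11.4 FPKM in wild type and 6.17, 5.56 and 9.92 FPKM in mutant replicates 1, 2 and 3. This gene missed the threshold, at a limma adjusted p of 0.0836 for a log2 fold change of -0.69 (SE 0.21). It was chosen for its likeness to GEX2 in these same values, so a similar result follows from the choice. In all, 34 tested genes differed from GEX2 by less than 0.1.

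For MTL the nearest gene lies on chromosome 6 (164734361 to 164736397), at a difference of 0.036. It was at 3.56, 4.0 and 3.05 FPKM in wild type and 3.23, 3.87 and 3.36 FPKM in the mutant libraries. MTL itself deviated by 0.118 only, and 235 genes came within 0.1 of it, so this likeness is that of genes that vary little. The within-group SD of MTL was 0.14 on the log2 scale, and 16.8% of tested genes had a smaller one. That of GEX2 was 0.29, with 61.1% of tested genes below it and a median of 0.24. For DMP the nearest tested gene lies on chromosome 7 (99148958 to 99156546) at a difference of 0.0338, which carries little weight beside 0 to 3 reads per library.

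**Figure D4:**
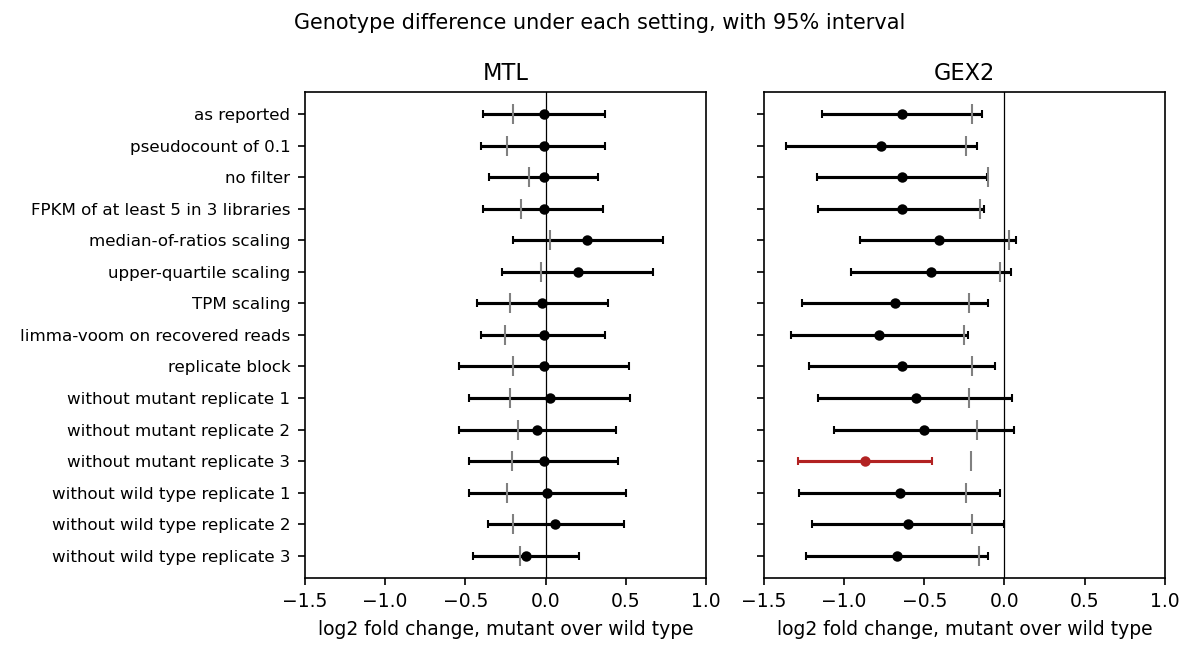
Log2 fold change, mutant over wild type, of MTL and GEX2 with 95% limma intervals under the reported setting and each alternative, on 1 shared axis range. Grey ticks mark the median of all tested genes in that setting, and red marks an adjusted p under 0.05. MTL runs from -0.12 to 0.26 and is called in no setting; GEX2 runs from -0.87 to -0.41 and is called only without mutant replicate 3.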

How the data were processed

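The deposited files hold FPKM made by the authors, 1 value per gene and library, with gene positions beside it. Bowtie2 2.2.3, HISAT2 2.1.0, HTSeq 0.6.0 and the build B73 RefGen_v4 are named in the submitters' processing notes, without roles; the strand setting is not given in the sources used here. Genotypes were compared with limma 3.58.1 (R 4.3.3, intensity trend, two-sided, Benjamini-Hochberg) on log2(FPKM + 1) over all 18984 genes that reached 1 FPKM in 3 or more libraries. Whole reads were recovered by searching, for each gene, the counted length at which every library has whole reads (tolerance 0.0001 reads, plus 3e-09 for each read). This solved 31465 of 31470 genes, against 2.05% of 2000 genes with perturbed values. The recovered length can be the true one divided by a shared factor. For MTL, DMP and GEX2 it is 81.1, 100 and 57.4% of the span, so no larger multiple of it fits within the span. Read intervals are exact Poisson intervals at 95%, and these and the floor of 3 reads per library cover counting error only. The fit was tested on simulated reads, where it called 42.9% of 2-fold and 98.9% of 4-fold changes in the comparison of mutant and wild type (18643 genes). The simulated spread was taken from the wild-type libraries alone, and no shift shared by most genes was simulated. Only 98 genes were given a 2-fold and 94 a 4-fold change, against 1262 genes called in the data. The adjustment over all genes depends on how many of them change. The simulated call rates may therefore not hold for these data, including for genes that vary more in the mutant, such as GEX2.

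Members, tests and lists were chosen with earlier results of these data known. The names of the 3 identifiers come from general knowledge of maize gene models. The files do not pair identifiers with names, and the RefSeq table of assembly Zm-B73-REFERENCE-NAM-5.0 matched 0 of 30950 Zm00001d identifiers. The 4 lists of marker symbols (pollen and sperm, tapetum and microspore wall, endothecium and wall, photosynthetic tissue, 67 symbols) therefore had 0 paired members and were not tested. The 2 targeted COI genes were not analysed here, and neither genotype nor tissue labels were checked on marker genes. Named genes were the 3 members, their nearest listed neighbours and, for each, the tested gene of most similar pattern. Same-numbered libraries had correlations of deviations of 0.012, -0.384 and -0.328, so the numbers were not taken to pair them.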

Additional observations from a re-analysis of the deposited data

How the results depend on the processing

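Scaling and single libraries moved these values most. MTL, called in none of 14 alternatives (limma adjusted p 0.473 to 0.980), turned sign at 0.26 with median-of-ratios scaling, 0.20 with upper-quartile scaling, and ran from -0.118 to 0.065 without 1 library. GEX2 stayed negative in all 14 (-0.87 to -0.41, adjusted p 0.0455 to 0.314); without 1 library it ran from -0.87 to -0.50 and was called only without mutant replicate 3. The DMP difference on log2(FPKM + 1), which rests on at most 3 reads per library and estimates no fold, ran from -0.046 to 0.13. The difference of GEX2 over MTL ran from -0.86 to -0.45 without 1 library, and that of DMP over MTL, limited by the same reads, from -0.052 to 0.19, changing sign. GEX2 over MTL without a pseudocount, chosen after seeing the data, stayed negative. The cause was not tested. Against 1262 called genes (361 higher, 901 lower), there were 292 with no filter, 748 with FPKM of at least 5, 715 with the replicate block and 50 to 1373 without 1 library. Median-of-ratios scaling gave 661 higher and 410 lower, and upper-quartile scaling 585 and 500. Under the replicate block GEX2 was at -0.64 (adjusted p = 0.194) and MTL at -0.01 (adjusted p = 0.980), so neither call changed, but the numbers are not known to pair the libraries. DMP held at most 3 reads per library, at a depth that gave MTL 1293 to 1599 reads and GEX2 185 to 414.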
